A study of Mus musculus with 18 samples.

Results

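Tgm2, Trmt61a, Tifa, Sting1, Gpr39, Cpne8, Erich3, Sema6b and Tnfaip2 are 9 of the 16321 genes in a gene table from the distal colon of mice without interleukin 10. They were selected on their readout: the mean of each was highest in Il10KO mice at week 10 and lower at weeks 8 and 12. RNA had been sequenced from colon biopsies of 18 BALB/c mice, 3 in each of 6 groups, with 1 age per mouse. The groups were the wild type (BALB/c WT) at 6 weeks and Il10KO mice, which lack the gene for interleukin 10, at 6, 8, 10, 12 and 14 weeks. The labels name no treatment and say no more of the knockout allele. The colon of Il10KO mice becomes inflamed without an added agent, and the labels give lipocalin, a protein marker of gut inflammation, in ng/g for the 15 Il10KO mice and 1 wild-type mouse. The values that chose the 9 genes, and every contrast of theirs with week 10, are therefore given below as a description with no test. For the 9 genes tests cover the contrasts among the other ages and the differences between mice of the same age, and week 10 is tested only for other genes.

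The 9 genes come from separate pathways. Sting1 encodes STING, an adaptor of the endoplasmic reticulum that binds the cyclic dinucleotide made by cGAS when it meets DNA in the cytosol, and that activates the kinase TBK1. Tifa encodes an adaptor that the kinase ALPK1 phosphorylates when it senses bacterial sugars, after which it assembles with TRAF6 and activates NF-kB. Tnfaip2 was named as a gene induced by tumour necrosis factor and belongs to a family related to the exocyst subunit Exoc3. Tgm2 is a transglutaminase, which cross-links proteins, and Trmt61a is the catalytic partner of Trmt6 in the methylation of an adenosine of transfer RNA. Gpr39 is a G protein-coupled receptor that responds to zinc and is known in the gut epithelium, and Sema6b is a transmembrane semaphorin, a ligand of plexin receptors. Cpne8 is a copine, a protein that binds membrane lipids when calcium is present, and Erich3 encodes a glutamate-rich protein linked to cilia.

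The data are estimated counts per gene, with library totals of 26495521 to 35497101. CPM are counts scaled to the effective library size (TMM), and TPM, also deposited, are shares per transcript length. Levels are compared between genes only as TPM, where the median over 18 libraries ran from 0.225 for Erich3 and 2.70 for Sema6b to 26.2 for Tifa and 42.3 for Tgm2. The RNA integrity number (RIN) was 8.4 to 9.3 in all libraries but week 14 replicates 2 and 3, at 6.5 and 5.8. Epithelial markers (Epcam, Cdh1, Vil1, Krt8, Krt20 and Lgals4) summed to 9537 to 17584 CPM in every library, as a colon sample should show. The 3 wild-type mice were the only ones from cage G, so the effects of genotype and of cage cannot be told apart. Without a wild type after week 6, the effects of age and of the missing gene cannot be told apart either. Each library is 1 mouse, so the errors below measure the spread between mice.

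Promoter sequences are shown for 3 genes on which transcript starts or position bear. Tifa has an upstream and a downstream group of annotated starts, Sema6b has 2 starts, and the transcript estimates separate their use. Tnfaip2 shares a stretch of chromosome 12 with Trmt61a. The sequences are from RefSeq on GRCm38.p6 and run from 250 bases before a start to 50 after it, on the gene's strand. Of the 9 genes, 7 matched an entry. Capitals mark matches, on either strand and overlaps included, to 3 motifs: an NF-kB-like motif (GGG, any 5 bases, CC), a gamma-activated site (TTC, any 3 bases, GAA) and an interferon-response core (TTTC, any 2 bases, TTTC). These motifs occur in 51.0%, 8.33% and 3.45% of all 32544 promoters of that length, so that an NF-kB-like match is common.
Tifa upstream start, chr3:127789622-127789921, plus strand: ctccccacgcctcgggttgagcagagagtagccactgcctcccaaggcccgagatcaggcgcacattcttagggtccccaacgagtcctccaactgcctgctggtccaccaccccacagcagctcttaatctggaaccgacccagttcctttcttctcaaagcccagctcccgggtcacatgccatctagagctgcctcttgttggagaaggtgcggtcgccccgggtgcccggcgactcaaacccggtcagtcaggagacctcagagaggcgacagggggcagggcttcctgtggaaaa
Tifa downstream start, chr3:127790407-127790706, plus strand: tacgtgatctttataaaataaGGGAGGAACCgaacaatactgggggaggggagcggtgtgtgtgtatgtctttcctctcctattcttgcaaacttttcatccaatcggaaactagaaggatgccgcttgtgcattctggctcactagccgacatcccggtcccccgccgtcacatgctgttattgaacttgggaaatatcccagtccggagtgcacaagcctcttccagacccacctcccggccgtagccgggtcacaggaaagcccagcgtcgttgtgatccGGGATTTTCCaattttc
Sema6b upstream start, chr17:56140294-56140593, minus strand: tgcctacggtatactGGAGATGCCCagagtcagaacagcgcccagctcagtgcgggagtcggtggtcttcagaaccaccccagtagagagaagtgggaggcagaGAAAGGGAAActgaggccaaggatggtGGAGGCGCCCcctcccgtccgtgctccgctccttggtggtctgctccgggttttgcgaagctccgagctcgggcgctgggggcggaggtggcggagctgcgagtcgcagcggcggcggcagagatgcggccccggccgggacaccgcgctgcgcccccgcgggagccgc
Sema6b downstream start, chr17:56133803-56134102, minus strand: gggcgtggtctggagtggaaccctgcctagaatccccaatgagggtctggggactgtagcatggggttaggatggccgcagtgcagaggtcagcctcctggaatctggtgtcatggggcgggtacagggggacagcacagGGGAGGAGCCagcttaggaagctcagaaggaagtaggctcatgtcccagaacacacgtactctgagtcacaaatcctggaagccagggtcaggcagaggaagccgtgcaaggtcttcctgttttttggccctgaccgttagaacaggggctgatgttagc
Tnfaip2, chr12:111442411-111442710, plus strand: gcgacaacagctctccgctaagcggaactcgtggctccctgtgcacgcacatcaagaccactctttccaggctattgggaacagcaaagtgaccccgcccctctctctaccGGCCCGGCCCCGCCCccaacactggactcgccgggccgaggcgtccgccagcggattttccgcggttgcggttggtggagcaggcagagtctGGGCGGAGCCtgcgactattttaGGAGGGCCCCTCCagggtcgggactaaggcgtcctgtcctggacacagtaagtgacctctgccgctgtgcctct
The Tifa downstream window held 2 NF-kB-like matches and the upstream window held 0. Tnfaip2 held 5, which overlap in part. The Sema6b upstream window held 2 and an interferon-response core, and its downstream window held 1. No gamma-activated site was in any of the 9 windows of the 7 genes, which says only that these letters are not there.

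By CPM, on which this paragraph rests, the peak at week 10 stood in every mouse of that age. In all 9 genes the 3 week 10 libraries lay above the 12 libraries of the wild type and of Il10KO weeks 6, 8 and 12. In 6 of them (Tgm2, Trmt61a, Sting1, Gpr39, Cpne8 and Tnfaip2) they lay above the other 15 libraries, those of week 14 included. Over the 16300 genes tested, 15.9% had their highest mean at week 10 and 1.43% also had all 3 week 10 libraries above the other 15. By the ratio of the week 10 mean to the next highest group mean, the 9 ranked 27th to 843rd of the 2590 genes with a peak there: Tgm2 was 27th with a ratio of 2.98, Tnfaip2 54th with 2.49, and Tifa 843rd with 1.27, where the median was 1.17. At week 10 against week 6, 24% of all genes passed in edgeR (2372 higher and 1545 lower), and their share is not read for genes chosen by that contrast. These numbers follow from how the genes were chosen.

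**Figure D1:**
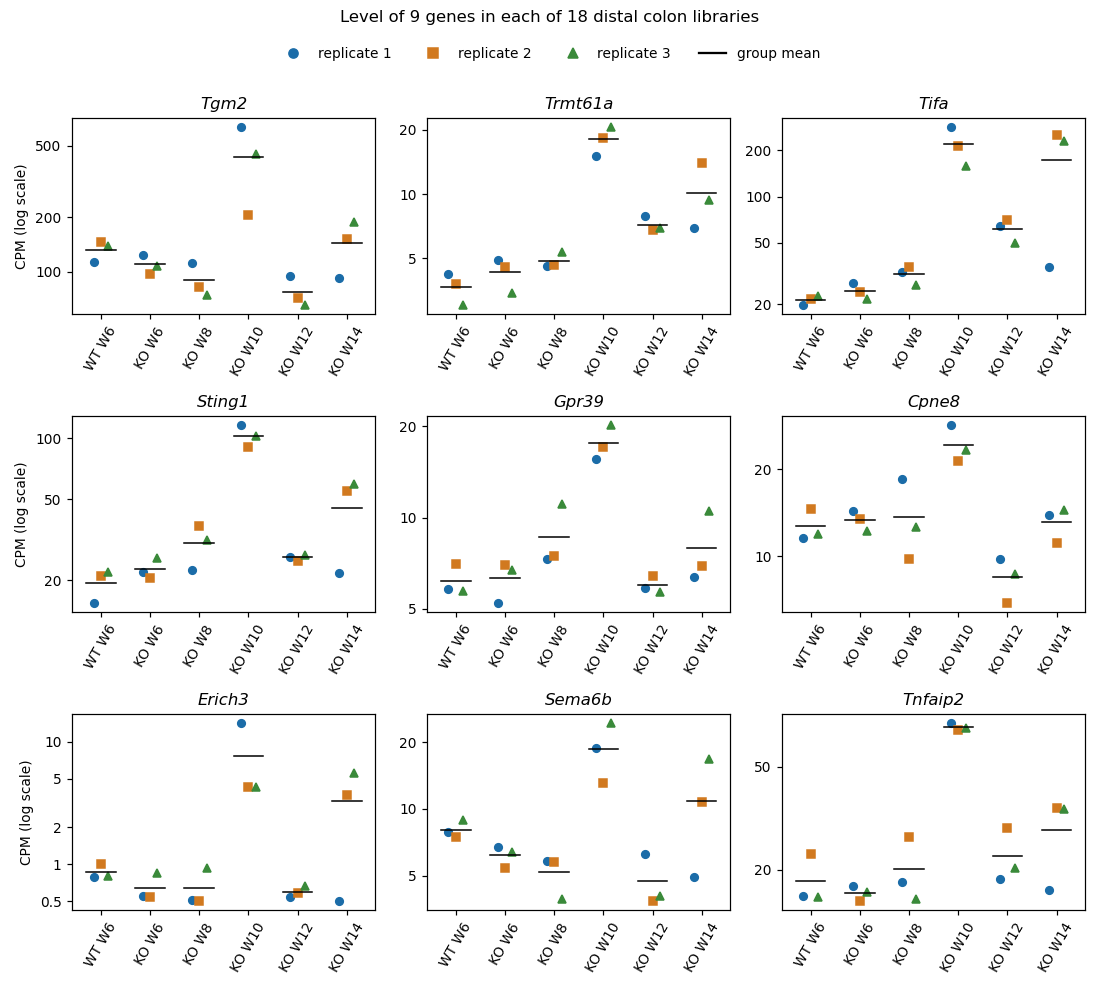
Level of each gene in CPM on a log scale (y axis) by group (x axis; KO is Il10KO and W the age in weeks), with 1 point per mouse, marked by replicate, and a line at the group mean. Week 10 holds the highest mean in every panel, and at week 14 replicate 1 lies below replicates 2 and 3 for 8 of the 9 genes, Cpne8 being the exception.

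Sting1 is ENSMUSG00000024349.10 on chromosome 18 (35733679 to 35740554, minus strand, GRCm38), where the annotation calls it Tmem173. It stood at 116, 90.5 and 102 CPM at week 10. At week 6 it was at 15.5, 20.9 and 21.9 in the wild type and at 22.1, 20.6 and 25.6 in Il10KO mice. Week 8 mice had 22.5, 37.2 and 31.7, week 12 mice 26.2, 25.0 and 26.7, and week 14 mice 21.8, 55.0 and 59.8 CPM. The lowest week 10 mouse was thus 1.51-fold above the highest other mouse, a week 14 one, and the change from week 6 to week 10 was 2.18 ± 0.31 (log2 ± SE). After week 10 the mean went from 103 ± 12.8 to 25.9 ± 0.848 CPM at week 12 (SD, n = 3), close to the 22.8 ± 2.57 of week 6.

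Tifa is ENSMUSG00000046688.14 on chromosome 3 (127789805 to 127832164, plus strand). It had the second largest week 10 change of the 9, at 3.16 ± 0.50, from 27.3, 24.1 and 21.6 CPM at week 6 to 283, 213 and 157 at week 10. The wild type had 19.8, 21.5 and 22.7 CPM and week 8 had 32.5, 34.7 and 26.8. Week 12 mice had 63.9, 70.4 and 49.7, above all week 6 mice, and week 14 mice had 35.1, 250.1 and 230.3 CPM. By CPM, Tifa is the gene whose week 10 peak was least distinct: 2 of 3 week 14 mice were above 2 of the 3 week 10 mice. Without week 14 replicate 1 the week 14 mean of CPM was the higher one, with a log2 ratio of week 10 to week 14 of -0.14 in place of 0.34. By TPM the 2 ages did not overlap, with 119, 97.5 and 99.7 at week 10 and 23.7, 44.6 and 55.2 at week 14.

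Tnfaip2 is ENSMUSG00000021281.15 on chromosome 12 (111442469 to 111455018, plus strand). At week 10 its 3 libraries were almost equal by CPM, at 73.6, 69.3 and 70.5 (coefficient of variation 3.16%). By TPM they were at 25.1, 21.0 and 35.8. The week 6 libraries were at 15.8, 23.0 and 15.7 CPM in the wild type and 17.2, 15.1 and 16.3 in Il10KO mice. Week 8 had 17.9, 26.8 and 15.4, week 12 had 18.5, 28.9 and 20.3, and week 14 had 16.7, 34.7 and 34.2 CPM. The lowest week 10 mouse was 2.00-fold above the highest other mouse, the widest such gap of the 9 genes, and the change from week 6 was 2.13 ± 0.30.

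Tgm2, ENSMUSG00000037820.15 on chromosome 2 (158116402 to 158146436, minus strand), had the highest level per length of the 9. By CPM the mice differed most at its peak after those of Erich3. At week 10 it was at 634, 207 and 448 CPM, a coefficient of variation of 49.8%. At week 6 it was at 113, 147 and 138 in the wild type and 124, 96.5 and 108 in Il10KO mice. Week 8 had 112, 82.1 and 74.0, week 12 had 94.1, 71.3 and 65.4, and week 14 had 91.9, 152 and 188 CPM. Replicate 2 of week 10 was only 1.10-fold above the highest other mouse, week 14 replicate 3. The change from week 6 was 1.97 ± 0.35, and the levels at weeks 8 and 12 had means of 89.3 ± 19.9 and 76.9 ± 15.2 CPM, below the 109.5 ± 13.9 of week 6.

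Trmt61a, ENSMUSG00000060950.12 on chromosome 12 (111678105 to 111683902, plus strand), differed by CPM from the genes above in which mouse was highest at week 10. By TPM, Sting1, Tnfaip2 and Tgm2 were highest in replicate 3, as Trmt61a was. At week 10 Trmt61a stood at 15.03, 18.4 and 20.6 CPM, highest in replicate 3. The means at the other ages were 3.69 ± 0.606 in the wild type, 4.30 ± 0.757 at week 6, 4.87 ± 0.432 at week 8 and 7.18 ± 0.605 at week 12. Week 14 had 6.90, 14.0 and 9.35 CPM. The lowest week 10 mouse was 1.07-fold above the highest week 14 mouse, and the change from week 6 to week 10 was 2.07 ± 0.27.

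The receptor Gpr39 and the ligand Sema6b are further genes highest in week 10 replicate 3. Gpr39 (ENSMUSG00000026343.6, chromosome 1, 125676995 to 125873862, plus strand) had 15.6, 17.1 and 20.2 CPM at week 10 and 7.33, 7.50 and 11.1 at week 8, the next highest group. Its means were 6.18 ± 0.718 in the wild type, 6.31 ± 0.942 at week 6, 5.98 ± 0.400 at week 12 and 7.93 ± 2.23 at week 14, and its week 10 change was 1.49 ± 0.25. Gpr39 was thus higher at week 10 in all 3 mice and near the week 6 level again at week 12. Sema6b (ENSMUSG00000001227.12, chromosome 17, 56123085 to 56140343, minus strand) had 18.7, 13.04 and 24.3 CPM at week 10 and 4.93, 10.8 and 16.7 at week 14, so that its week 10 and week 14 mice overlapped. Its means were 8.08 ± 0.751 in the wild type, 6.18 ± 0.688 at week 6, 5.18 ± 1.09 at week 8 and 4.72 ± 1.35 at week 12, and its week 10 change was 1.60 ± 0.37.

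Cpne8 had the smallest week 10 change of the 9 and Erich3 the largest. Cpne8 (ENSMUSG00000052560.15, chromosome 15, 90487482 to 90679432, minus strand) stood at 28.5, 21.3 and 23.3 CPM at week 10, against 12.8 ± 1.65 in the wild type. The other Il10KO means, from the youngest age on, were 13.4 ± 1.07 (week 6), 13.7 ± 4.41 (week 8), 8.47 ± 1.47 (week 12) and 13.2 ± 1.81 (week 14). Its week 10 change was 0.87 ± 0.24. Its peak depends on the scale: by TPM the mean was 8.30 ± 1.88 at week 6 and 7.61 ± 1.58 at week 10. Erich3 (ENSMUSG00000078161.8, chromosome 3, 154663859 to 154767790, plus strand) was near the lower end of what was measured, with 0.501 to 1.01 CPM in the libraries of weeks 6, 8 and 12 and in week 14 replicate 1. At week 10 it stood at 14.2, 4.27 and 4.31 CPM, and in week 14 replicates 2 and 3 at 3.68 and 5.61, a week 10 change of 3.56 ± 0.70. The counts behind the week 10 values were 370, 125 and 143.

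TPM and CPM differ in these libraries, which also differ in the mean length of the transcripts sampled and in the TMM scaling factor. The mean length was 1497 to 1541 nt at week 6 and 1208, 1203 and 1480 nt at week 10. Week 12 libraries had 1136 to 1276 nt, and week 14 replicates 2 and 3 had 857 and 946 nt. The TMM factor was 1.09 to 1.16 at week 6 in Il10KO mice, 0.875, 0.932 and 1.01 at week 10, and 0.581 and 0.680 in week 14 replicates 2 and 3. Relative to CPM, the TPM of the median gene was shifted by -0.72, -0.68 and -0.21 (log2) in the week 10 libraries, by -0.68 to -0.39 at week 12, and by -0.13, -1.95 and -1.55 at week 14. By TPM, 8 of the 9 genes kept their highest mean at week 10, all but Cpne8. At week 14 the scale sets the direction: by TPM, Trmt61a was at 3.77 ± 2.59 against 4.95 ± 1.99 at week 6, Tnfaip2 at 4.92 ± 1.68 against 8.24 ± 0.878, and Sting1 at 17.5 ± 2.61 against 18.5 ± 2.62, below week 6 where CPM were above it. Tifa, at 41.2 ± 16.0 against 18.2 ± 2.94, and Erich3, at 0.283 ± 0.199 against 0.243 ± 0.161, were above it on both scales.

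In the order of their group means the 9 genes shared the peak and, in part, the rest. Tgm2 and Sema6b had the same full order, as did Trmt61a and Tifa. Week 14 was the next highest group for 7 of the 9 genes and week 8 for Gpr39 and Cpne8. Of the 5 pairs of neighbouring groups in each gene's order, 3 to 5 overlapped between mice. By CPM the pair of week 10 and the next group did not overlap in 6 genes and did in Tifa, Erich3 and Sema6b. Tgm2, Erich3 and Sema6b were higher in the wild type than in Il10KO mice at weeks 6, 8 and 12 by their means, while Tifa, Trmt61a and Sting1 had their lowest mean in the wild type.

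No difference between Il10KO and wild-type mice passed for any of the 9 genes at 6 weeks. The question is whether these genes already differ at the youngest age. Their changes were -0.42 to 0.23 on the log2 scale, the largest being Erich3 at -0.42 ± 0.66 (edgeR adjusted p = 1). With edgeR, 0 of 9 passed an adjusted threshold of 0.05, 0 had an unadjusted p below it, and the background was 0% of 16300 genes, with 394 unadjusted. DESeq2, which called 0.155% of all genes, and voom, which called 2.17%, also called 0 of the 9, with 0 and 1 unadjusted.

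Week 8 against week 6 asks whether the rise had begun. With edgeR, 0 of 9 passed and 0 were below 0.05 unadjusted, and the background was 0.0675%. The median change was 0.18, against 0.031 over all genes, and 6 of 9 were positive. Gpr39, at 0.45 ± 0.24, and Sting1, at 0.42 ± 0.30, had the largest values. At week 8 the zinc receptor Gpr39 was above every week 6 library in all 3 mice by CPM. Its lowest value was 7.33 CPM, against at most 6.99 in Il10KO mice and 7.01 in the wild type at week 6. By TPM the ages overlapped, with 3.81 in week 8 replicate 2 against at most 3.97 and 4.02. How many of all genes were separated like this was not counted. The change from Il10KO week 6 did not pass (edgeR adjusted p = 0.751).

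Week 12 against week 6 asks what remained after the peak. With edgeR, 0 of 9 passed and 3 were below 0.05 unadjusted, and the background was 1.85%. The 3 were Tifa at 1.33 ± 0.47 (edgeR adjusted p = 0.102), Trmt61a at 0.74 ± 0.26 (0.102) and Cpne8 at -0.66 ± 0.24 (0.105). By CPM, all 3 week 12 mice were above all 3 Il10KO week 6 mice for Tifa and for Trmt61a, and below them for Cpne8. By TPM this held for Tifa and Cpne8 but not for Trmt61a, with 5.75, 5.25 and 6.19 against 6.98, 4.89 and 2.99. How many of all genes were separated like this was not counted. The count changed with the fit, as did that over all genes: it was 3 with DESeq2 (15.6% of all genes called), 3 without week 14 (41.3%) and 5 with a weight per group in voom (61.9%). The other 6 genes had changes of -0.51 to 0.47, with Sting1 at 0.19 ± 0.30.

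Week 14 against week 6 had 5 of the 9 genes higher and 0 lower, against a background of 33.1% in either direction. With edgeR, Tifa rose by 2.82 ± 0.49 and Trmt61a by 1.23 ± 0.26 (adjusted p = 0.00616 for both), Erich3 by 2.33 ± 0.67 (0.0191), Sting1 by 1.00 ± 0.30 (0.0233) and Tnfaip2 by 0.81 ± 0.29 (0.0427). Sema6b had 0.80 ± 0.37 (0.0875), Tgm2 0.39 ± 0.34, Gpr39 0.33 ± 0.24 and Cpne8 -0.02 ± 0.24. For Sting1, Tnfaip2 and Erich3, week 14 replicate 1 was within or below the week 6 range. By CPM, Trmt61a and Tifa were above every week 6 mouse in replicate 1 too, at 6.90 and 35.1. Replicates 2 and 3 are the libraries of low RIN, and without them week 14 is 1 mouse, a fit in which 0% of all genes passed and Trmt61a had a change of 0.68. With cage as a factor or with only the 6 libraries compared, 0% of all genes passed as well, and voom called 1 of the 9 and 8.45% of all genes. The count was 6 without week 14 replicate 1 (69.5% of all genes), 2 without replicate 2 or 3 (11.5% and 13.8%) and 2 or 3 without a week 6 library (15.9% to 17%). What RIN contributed was not tested.

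**Figure D2:**
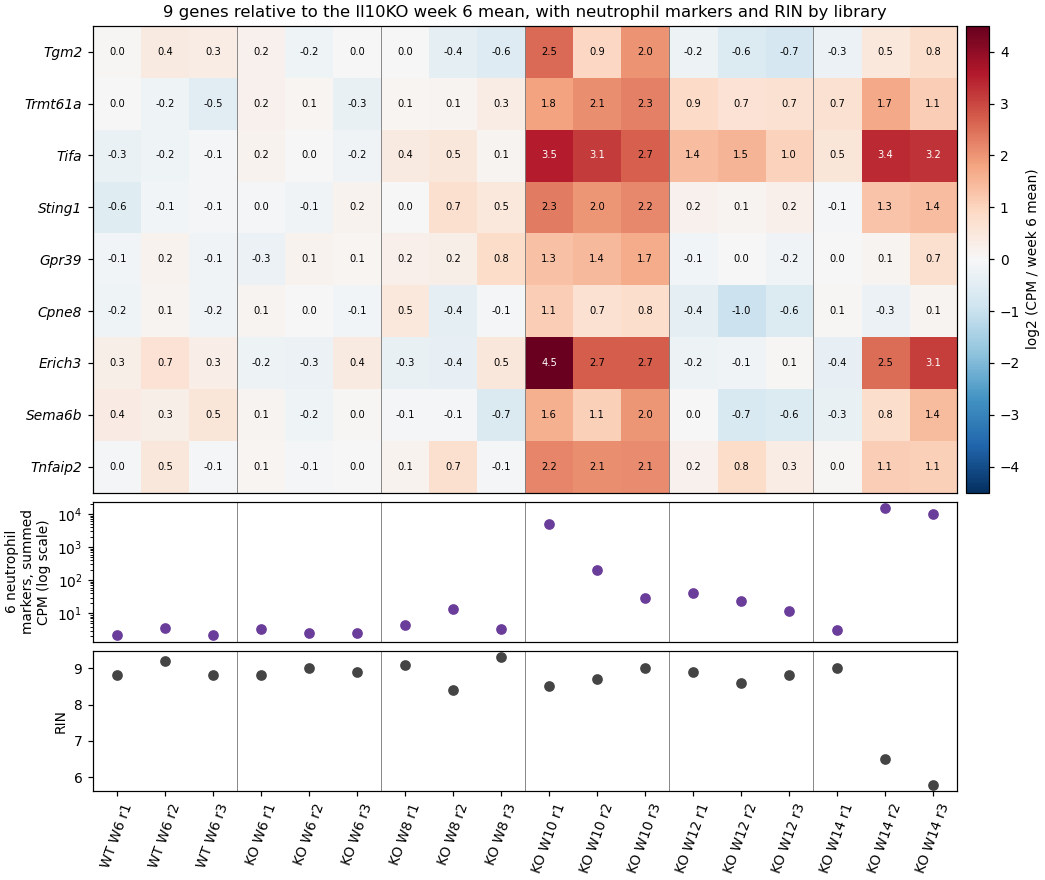
Top: log2 of each library's CPM over the Il10KO week 6 mean for each gene (rows) in each library (columns, in the order of the bottom axis; r is the replicate). Below: the summed CPM of 6 neutrophil markers on a log scale, and the RIN, of the same libraries. The 3 week 10 columns are high for all 9 genes while neutrophil markers fall from 4942 to 29.4 CPM across them, and week 14 replicates 2 and 3 are high for Tifa and Erich3.

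Neutrophil markers varied far more between the week 10 mice than the 9 genes did. The 6 markers (S100a8, S100a9, Csf3r, Cxcr2, Mmp8 and Retnlg) summed to 2.15 to 3.50 CPM in the week 6 libraries of both genotypes, and to 4942, 198 and 29.4 CPM at week 10. Week 12 mice had 11.4 to 41.9 and week 14 mice 3.21, 15154 and 9910. Their level differed 168-fold between week 10 mice. By CPM, Tnfaip2 differed 1.06-fold between the same mice, Sting1 1.28-fold, Gpr39 1.29-fold, Cpne8 1.33-fold and Trmt61a 1.37-fold. Tifa differed 1.80-fold and Sema6b 1.87-fold. Tgm2 and Erich3 differed most, 3.06-fold and 3.33-fold, and by CPM both were highest in replicate 1, as the neutrophil markers were. By TPM, Tgm2 was highest in replicate 3, with 154, 52.7 and 162 in replicates 1 to 3, and Tnfaip2 had 25.1, 21.0 and 35.8. In replicate 3, where the neutrophil markers were lowest, Trmt61a, Gpr39 and Sema6b had their highest values by CPM and by TPM.

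Other cell type markers moved too. At week 10 against week 6, 5 of 6 neutrophil markers and 3 of 6 T cell markers rose, 5 of 6 fibroblast and 3 of 6 endothelial markers fell, and 3 of 6 markers of enteric neurons and glia fell. Epithelial markers had a median change of -0.02, with 1 of 6 higher, and macrophage markers had 0.12, with 0 of 6 passing. Summed fibroblast markers were at 756, 700 and 1214 CPM at week 10 against 2069 to 3122 at week 6, and stayed at 626 to 694 at week 12, when the 9 genes were low again. No marker was at 0 in a whole group. In a biopsy, fewer cells of a type and less RNA per cell cannot be told apart, and the part of these shifts in the 9 genes was not tested.

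No relation to inflammation between mice of the same age passed. With edgeR, 0 of 9 genes had a slope on log10 lipocalin that passed (0 unadjusted), against a background of 0% of 16182 genes, of which 117 were below 0.05 unadjusted. The slopes, as log2 CPM per unit of log10 lipocalin within age, were -0.20 to 1.44. Erich3 had 1.44 ± 1.31, Sema6b 1.18 ± 0.64, Tgm2 0.94 ± 0.60, Tifa 0.74 ± 0.88, Sting1 0.68 ± 0.56 and Tnfaip2 -0.05 ± 0.53. Across ages lipocalin did not peak at week 10. It was at 554, 340 and 364 ng/g there and at 2574, 444 and 1767 at week 12, when all 9 genes were lower. Lcn2, which encodes lipocalin 2, was also higher at week 10 than at week 12, with 113, 55.2 and 30.9 CPM against 7.96, 3.64 and 5.73, and its week 14 mice had 1.42, 103 and 70.5.

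The choice of the 9 genes fixes the direction between week 10 and the other ages, so ratios between mice of 1 cage are given only for their size. Cage B held a mouse of week 10 and mice of weeks 6, 8 and 12: the week 10 mouse was higher for 9 of 9 genes against each, with median ratios of 4.86, 4.10 and 4.12. In cage F it was higher than its week 6 cage mate for 9 of 9, with a median of 4.15. In cage C it was 2.52-fold higher than the week 8 mouse in the median, again for 9 of 9. Against the week 14 mouse of cage C it was higher by CPM for 8 of 9, with a median of 1.36, Tifa being the exception at 0.853. Each of these ratios compares 1 mouse with 1 mouse.

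The 9 genes were also compared with each other across the 18 libraries, which share ages and mice. They were chosen for a shared peak, so positive correlations across all 18 libraries follow in part from the choice. Pearson's r of log2 CPM between pairs was 0.395 to 0.937 over 36 pairs, with a median of 0.783. After each group's mean was subtracted it was -0.325 to 0.830, with a median of 0.390, and 31 of 36 pairs were positive. Within groups Sting1 and Erich3 were closest (0.830), then Tifa and Erich3 (0.825) and Tifa and Sting1 (0.810). At week 14 these genes differed 2.75-fold (Sting1), 11.2-fold (Erich3) and 7.12-fold (Tifa) between mice, each lowest in replicate 1. Replicates 2 and 3 of that age are the libraries of low RIN, and their part in these values was not tested. Cpne8 had the lowest values, with -0.325 to Tnfaip2 and -0.262 to Sting1.

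Genes most like the 9 were ranked by the Pearson correlation of their log2 CPM with the mean of the 9 standardised profiles, over 18 libraries and 13719 other genes. The highest were Fut2, a fucosyltransferase of mucus and epithelial glycans (r = 0.938), Ubash3b (0.930), the chaperonin subunit Cct3 (0.927), Trmt6 (0.923), Tnfrsf1b, a receptor of tumour necrosis factor (0.918), Srprb (0.916), Ifrd2 (0.915), Dpagt1, the enzyme that starts N-glycan assembly (0.914), Srm, spermidine synthase (0.913), and Wdr18 (0.909). All 10 had their highest mean at week 10, which the ranking favours because the 9 genes were chosen for that peak. Fut2 went from 79.5 ± 10.1 CPM at week 6 to 641 ± 129 at week 10 and 143 ± 18.3 at week 12 (SD, n = 3), and Tnfrsf1b from 34.8 ± 1.72 to 210.3 ± 46.3 and 58.2 ± 2.77. Trmt6, the partner of Trmt61a, went from 17.3 ± 1.07 to 45.6 ± 5.47 and 22.9 ± 1.76 CPM. Ranked by Spearman's correlation the first 10 shared 0 genes with these.

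Taken gene by gene, the closest profile was Fut2 for Sting1 (r = 0.966) and for Tnfaip2 (0.920), Srm for Trmt61a (0.963), Pgam5 for Tifa (0.983) and Cct8 for Gpr39 (0.966). It was Spry4 for Tgm2 (0.889), Rps6ka4 for Sema6b (0.889), Adss for Erich3 (0.951) and Pla2g4a for Cpne8 (0.871). With group means subtracted, the genes most like the mean of the 9 were Srprb (0.925), Tnfrsf1b (0.923), Tigar (0.920), Cgref1 (0.917) and Slc25a48 (0.916). Cgref1 and Slc25a48 were highest at week 14, so they follow the differences between mice and not the peak. Those differences include the low-RIN libraries of week 14, whose part was not tested.

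Relatives and pathway partners of the 9 genes were taken from 9 lists, 133 genes in all with none of the 9 among them. Of the 116 that were tested for week 10 against week 6, 37 rose and 10 fell, 40.5% called against the 24% of all genes. The median change was 0.26 over these genes and 0.015 over all genes. The lists were chosen with earlier results of these data known, so both comparisons are a description only. The count called depends on single libraries, as it does over all genes. It was 13 to 16 without any 1 week 6 library, where 4.7% to 6.76% of all genes were called, 17 without week 10 replicate 1 (6.68%) and 30 without week 10 replicate 2 (11.2%). Without week 14 it was 67, where 51.6% of all genes were called. With cage as a factor in the 15 Il10KO libraries it was 1 (0.0124%).

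The list of transfer RNA methyltransferases had the largest share called: 13 of 17 rose and 0 fell, with a median of 1.04. The 13 include Alkbh1 and Alkbh3, which are demethylases. Wdr4, which with Mettl1 forms the enzyme that methylates a guanosine of transfer RNA, rose by 1.90 ± 0.32 (edgeR adjusted p = 0.00339), from 8.83 ± 0.437 to 33.1 ± 4.27 CPM. Trmt10a rose by 1.89 ± 0.38 (0.00686) and Alkbh1, a demethylase, by 1.51 ± 0.47 (0.0340). Trmt6 rose by 1.40 (0.00339) and Mettl1 by 1.21 (0.0227). The 13 fell to 5 without week 10 replicate 1, to 3 to 6 without a week 6 library, and to 0 with cage as a factor, where 16 of 17 changes were positive with a median of 0.94, and was 13 without week 14.

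Of 16 genes of STING and DNA sensing, 9 rose and 1 fell, with a median of 1.07. The largest were Zbp1, a sensor of nucleic acids, by 4.42 ± 0.92 (edgeR adjusted p = 0.00811, 13.5 ± 8.61 to 287 ± 79.9 CPM), Ifi204 by 3.68 ± 0.75 (0.00748) and the DNA exonuclease Trex1 by 1.47 ± 0.51 (0.0487). Cgas, which makes the messenger that STING binds, rose by 1.41, and Tbk1, the kinase below it, by 1.17. Enpp1, which breaks that messenger down, fell by 0.89. The 9 rises were 6 without week 10 replicate 1, 4 without week 10 replicate 2 or any 1 week 6 library, and 0 with cage as a factor, where the median was 0.77.

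In the list of TIFA, TRAF and NF-kB signalling 7 of 18 rose and 1 fell, with a median of 0.43. Nfkbiz, an inducible cofactor of NF-kB, rose by 3.33 ± 0.37 (edgeR adjusted p = 0.000361, 18.9 ± 1.06 to 190 ± 18.6 CPM), Bcl3 by 2.06 ± 0.26 (0.000816) and Nfkbia, an inhibitor of NF-kB, by 1.82 ± 0.37 (0.00689). Alpk1, the kinase that activates TIFA, had 0.42 ± 0.20 and did not pass (0.122), and lies 9278 bases from Tifa on the opposite strand. Of the TNF-alpha induced proteins and Exoc3 relatives 2 of 11 rose, Tnfaip8 by 1.79 ± 0.48 (0.0208) and Tnfaip3, which limits NF-kB, by 1.70 ± 0.27 (0.00294), and 0 fell. Without week 10 replicate 1 or any 1 week 6 library the first list had 4 or 5 rises and the second 1.

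The nearest relatives of the other genes did not share one direction. Of 7 transglutaminases, Tgm5 rose by 2.41 ± 0.68 (edgeR adjusted p = 0.0253, 0.574 ± 0.205 to 3.05 ± 1.19 CPM) and Tgm1 by 1.42 ± 0.44 (0.0343), and F13a1, the A chain of coagulation factor XIII, fell by 1.80 ± 0.54 (0.0313). Of 6 copines, Cpne2 rose by 1.27 ± 0.26 (0.00689). Of 15 zinc transporters and GPR39 relatives 3 rose, the largest being Slc30a2 by 2.11 ± 0.43 (0.00753), and 3 fell, Slc30a10 by 5.96 ± 2.03 (0.0456, 17.2 ± 18.2 to 0.271 ± 0.257 CPM), Ntsr1 by 3.42 ± 1.10 (0.0382) and Slc39a5 by 1.24. Without week 10 replicate 1 or any 1 week 6 library, 0 transglutaminases were called, and the zinc list had 1 rise and 0 falls. The copines had 1 rise in each of these fits.

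Of the semaphorins and plexins 22.2% were called, near the 24% of all genes, and 6 of 18 changes were positive. Of the 18, 1 rose, Sema7a by 1.62 ± 0.51 (edgeR adjusted p = 0.0360), and 3 fell: Plxnb3 by 2.46 ± 0.75 (0.0327), Plxnd1 by 1.63 ± 0.56 (0.0456) and Sema3a by 1.26. The median was -0.88, and the list had 10 falls without week 14 but 0 without week 10 replicate 1 or 2 or without any 1 week 6 library. Fibroblast and endothelial markers, given above, also fell, and their part was not tested. Of 9 tested genes of the ERICH family and of motile cilia 0 rose and 1 fell, the dynein Dnah5 by 2.74 ± 0.86 (0.0347, 0.758 ± 0.118 to 0.114 ± 0.0431 CPM), with a median of 0.10 over the list. The fall was lost without week 10 replicate 1, 2 or 3 or any 1 week 6 library.

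**Figure D3:**
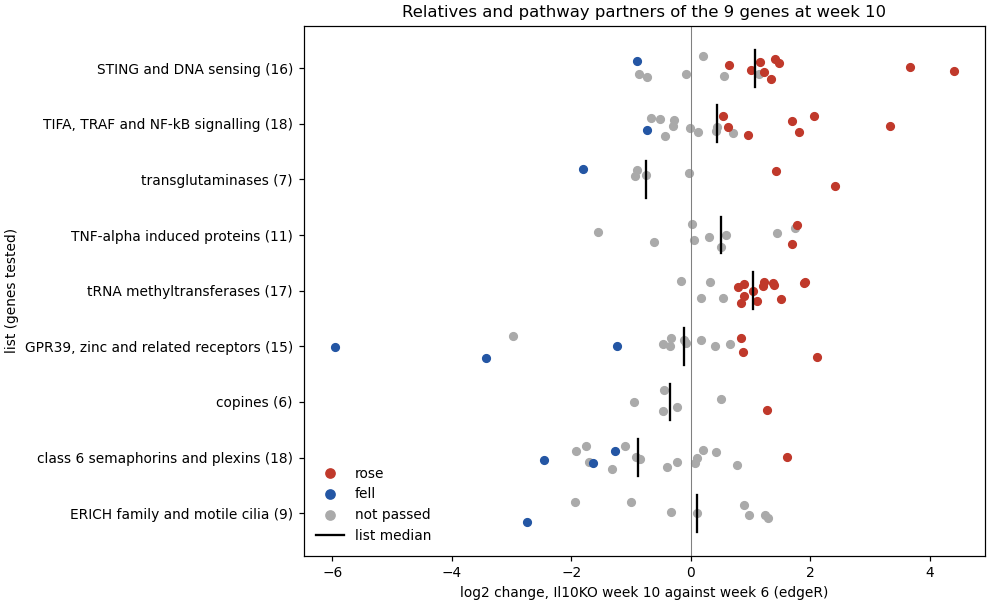
Log2 change from Il10KO week 6 to week 10 in edgeR (x axis) of the 116 tested genes, with 1 point per gene in each of 9 lists (y axis, with the number tested); Tnfaip3 is in 2 lists. Colours mark adjusted calls and black bars list medians, which are 1.07 for STING and DNA sensing, 1.04 for transfer RNA methyltransferases and -0.88 for semaphorins and plexins.

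Of the 18 nearest tested protein-coding genes, 1 on each side of each of the 9, 2 rose, 1 fell and 15 did not pass at week 10 against week 6, and 3 had their highest mean at week 10. These 3 of 18 compare with 24% of all genes called and 15.9% highest at week 10, so neither count stands out. Lrg1, 1084 bases from Sema6b on the same strand, rose by 6.78 ± 1.43 (edgeR adjusted p = 0.00871), and Ecscr, 11323 bases from Sting1, by 2.73 ± 0.65 (0.0136). Ckb, 5767 bases from Trmt61a, fell by 1.60 ± 0.44 (0.0224). Tnfaip2 and Trmt61a lie 223086 bases apart with 4 tested protein-coding genes between them, of which 0 rose and 1 fell. Rprd1b overlaps Tgm2 by 15896 bases on the opposite strand, Ap1ar overlaps Tifa by 25158 and Lypd1 overlaps Gpr39 by 6241. Whether the counting used strand is not given in the sources used here, so reads of such pairs cannot be told apart, and none of these 3 partners was called.

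The transcript estimates show which forms made up the week 10 levels. Tgm2 was at least 99.75% 1 transcript in every library, and Gpr39 has 1 annotated transcript with counts. Tnfaip2 had 89.1% to 99.8% in its main transcript. Both groups of Tifa starts were higher at week 10. Transcripts of the downstream starts went from 13.3 ± 3.39 to 128 ± 34.6 CPM between weeks 6 and 10. Those of the upstream starts went from 11.0 ± 1.69 to 90.1 ± 28.6. The downstream share was 57.25%, 60.2% and 59.0% at week 10, against 43.5% to 62.3% at week 6, and was 41.1% and 38.0% in week 14 replicates 2 and 3. By CPM Tifa was thus near its week 10 level in those mice with another mix of starts. By TPM it was lower there, at 44.6 and 55.2 against 97.5 to 119 at week 10. Those 2 libraries are the ones of low RIN, and its part in the mix was not tested.

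Sema6b and Sting1 showed the other shifts in form. The upstream start of Sema6b made 39.5%, 59.4% and 49.5% of its counts at week 10 and 18.7%, 24.8% and 37.7% at week 6. It went from 1.67 ± 0.641 to 9.07 ± 2.59 CPM, and the downstream start from 4.51 ± 0.838 to 9.63 ± 3.79, so that both were higher and the upstream start more so. Transcripts of Sting1 with a retained intron held 10.3%, 18.8% and 9.89% at week 10, against 3.45% to 12.5% at week 6. They held 26.1%, 30.1% and 20.2% at week 12 and 56.2% and 40.6% in week 14 replicates 2 and 3. The remaining Sting1 transcripts stood at 21.0 ± 1.30 CPM at week 6 and 89.95 ± 15.5 at week 10, then at 19.4 ± 1.90 (week 12) and 26.4 ± 8.26 (week 14).

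The other shares varied more than they moved. The full-length 8280-nt transcript of Erich3 made 86.2%, 55.6% and 85.5% of its week 10 counts. Trmt61a had 86.1% to 90.0% in its longest form at week 10, and 47.5% and 39.3% in week 14 replicates 2 and 3. The protein-coding transcript of Cpne8 made 78.0% to 99.9% at week 10 and was estimated at 0.0% in week 14 replicate 2 and 38.6% in replicate 3, against 98.0% in replicate 1. Those 2 libraries are the ones of low RIN. Estimates that split reads among overlapping transcripts are uncertain, and none of these shares was tested.

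**Figure D4:**
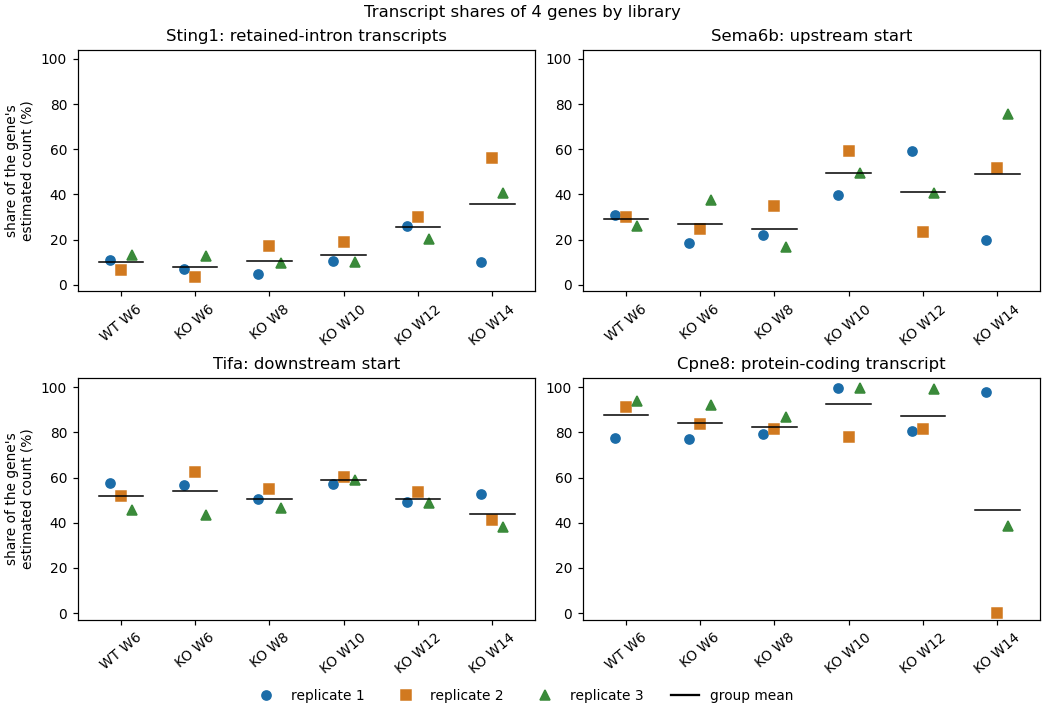
Share of a gene's estimated count held by the named transcripts (y axis, percent) by group (x axis), with 1 point per library, marked by replicate, and a line at the group mean. The retained-intron share of Sting1 is highest at 56.2% in week 14 replicate 2. The upstream start of Sema6b lies at 39.5% to 59.4% at week 10 and at 23.5% to 59.1% at week 12.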

How the data were processed

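RNA of distal colon from 18 mice had been sequenced, in 6 groups of 3, and group, age, cage, RIN and lipocalin were taken from the labels. The authors deposited estimated counts and TPM per gene symbol and per transcript, and per the submitters' processing notes these come from FastQC and kallisto with mm10. Versions, the annotation release and the strand setting are not given in the sources used here.

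Counts were rounded and fitted with edgeR 4.0.16 in R 4.3.3 (TMM scaling, filterByExpr, quasi-likelihood F test, 1 mean per group over 18 libraries, Benjamini-Hochberg threshold 0.05), which tested 16300 of 16321 genes. An SE is the log2 change divided by the root of F, and thus shares the spread of all groups. Log2 CPM used a prior count of 2. The lipocalin slope was fitted within age in the 15 Il10KO libraries. Fits were tested on simulated data. Same-numbered mice mostly did not deviate together (r above 0.1 in 13 of 45 pairs, -0.615 to 0.475). The reported fits therefore did not pair mice by number. Replicate 2 was an exception: among weeks 8, 10, 12 and 14 its r was 0.116 to 0.465 in every pair. Its mice of weeks 8, 10 and 14 shared cage C, and the part of cage in these values was not tested. Alternatives were RLE scaling, no filter, DESeq2 1.42.0, voom with a weight per group (limma 3.58.1), a replicate block, cage as a factor, RIN of 7 or more, only the compared groups, each library left out and, chosen after seeing the data, week 14 left out and each library left out of the peak ratios.

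Positions are from the GENCODE annotation of GRCm38, matched by transcript. The 9 genes, the lists and the tests were chosen with earlier results of these data known. Of each list the text names the 3 called genes with the largest absolute change, and of similar profiles the 10 highest, the 5 highest with group means subtracted and the 1 highest per gene. Cgas, Tbk1, Enpp1, Alpk1, Trmt6, Mettl1, Slc39a5, Sema3a and the neighbouring genes were named after their values were seen.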

Additional observations from a re-analysis of the deposited data

How the results depend on the processing

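All fits rest on 3 mice a group. The week 10 mean stayed the highest by TPM and with each library left out for all 9 genes but Cpne8 by TPM and Tifa without week 14 replicate 1. At week 12 the count of the 9 genes called was 0 as reported, 3 with DESeq2, with RIN of 7 or more and without week 14, and 5 with voom and with only the compared groups, while 1.85%, 15.6%, 40.8%, 41.3%, 61.9% and 59% of all genes were called in these fits. At week 14 it was 5 as reported, 1 with voom, 0 with cage as a factor, with RIN of 7 or more and with only the compared groups, and 2 to 6 with each library left out. Of all genes 33.1% were called as reported, 8.45% with voom, 0% in the 3 fits with none of the 9, and 11.5% to 69.5% with each library left out. Of the related genes, 47 were called at week 10, 1 with cage as a factor, 67 without week 14, and 13 to 48 with each library left out, against 24%, 0.0124%, 51.6% and 4.7% to 32.1% of all genes. The replicate block left the counts of the 9 genes at 0, 0, 0 and 5 for the 4 tested contrasts and gave 34 for the related genes, and changed no call of a tested contrast among them. Among single values, some changes of sign were small and others were not. For Cpne8 at week 14 the value was 0.00855 with RLE, 0.010 with DESeq2, 0.046 with cage and 0.053 with RIN of 7 or more, and its week 8 value was -0.020 with voom. With cage, week 8 gave 0.024 for Tgm2, -0.045 for Trmt61a, -0.11 for Tifa and 0.092 for Sema6b. With RIN of 7 or more, which leaves 1 week 14 mouse, week 14 gave -0.26 for Tgm2, against 0.39 as reported. It gave -0.069 for Sting1 (1.00 as reported), -0.37 for Erich3 (2.33) and -0.33 for Sema6b (0.80). The Tnfaip2 lipocalin slope was 0.46 with the block, and the Cpne8 log2 peak ratio by TPM was -0.12. With each library left out, the ranges that crossed 0 were, for the knockout against the wild type, -0.050 to 0.15 (Gpr39) and -0.25 to 0.048 (Tnfaip2), for week 8 -0.25 to 0.22 (Cpne8) and -0.35 to 0.24 (Erich3), for week 12 -0.19 to 0.0029 (Gpr39) and -0.22 to 0.14 (Erich3), and for week 14 -0.095 to 0.086 (Cpne8). They were -0.45 to 1.61 for the Tnfaip2 slope and -0.14 to 0.72 for the Tifa log2 peak ratio. The cause of these shifts was not tested. Depth limits Erich3 most, with 16 to 37 counts in the libraries where it was low.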
